A study of Rattus norvegicus with 16 samples.

Results

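The matrix proteases and TIMP inhibitors described here are 9 genes, taken from the deposited counts by their symbols. They are the inhibitors Timp1, Timp2 and Timp3, the matrix metalloproteinases Mmp2, Mmp9 and Mmp14, and the secreted proteases Adamts1, Adamts4 and Adamts9. All 9 were found among the 17055 genes counted in rat liver, and all 9 had enough reads to be tested in every comparison.

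The livers came from male Sprague-Dawley rats aged 10 weeks and were taken 8 h after a midline celiotomy. In the sepsis groups the cecum was ligated and punctured (cecal ligation and puncture, CLP), and in the control groups it was lifted out and returned. The Isoflurane sepsis and Isoflurane control rats were induced and kept under isoflurane, started at 1.5%, whereas the Propofol sepsis and Propofol control rats were induced with ketamine-xylazine and kept under Propofol. Each group had 12 rats in 4 RNA-seq libraries, and each library pooled 3 rats, so the spread given below is between pools and not between animals. Libraries 1 to 4 are Isoflurane sepsis and 5 to 8 their controls, and libraries 9 to 12 are Propofol sepsis and 13 to 16 their controls. The anesthetic cannot be told apart from the induction drugs, nor from a code in the deposited names that differs between the isoflurane and Propofol libraries. No untouched rats were in the series, so both controls carry the effects of anesthesia and surgery.

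Matrix metalloproteinases (MMPs) are zinc endopeptidases that are made as inactive precursors and cut collagens, elastin, basement membrane proteins and many signaling proteins. The ADAMTS proteases are their secreted relatives with thrombospondin repeats, and Adamts1, Adamts4 and Adamts9 cut the large proteoglycans versican and aggrecan. Tissue inhibitors of metalloproteinases (TIMPs) block the active site of MMPs, and Timp3 also blocks ADAMTS proteases. In liver, Timp1 is known as an inflammation-induced and fibrosis-linked gene of stellate cells, macrophages and hepatocytes, and matrix turnover is carried out largely by nonparenchymal cells.

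Promoters of 4 members that rose in sepsis under both anesthetics are shown to let their proximal sequence be read beside their values. They are RefSeq sequences of the GRCr8 build, 5′ to 3′ on the gene's strand, from 250 bases before to 50 bases after the annotated start. Of the 9 members, 6 had a promoter in the table, and Mmp2, Mmp9 and Mmp14 had none. Capitals mark exact matches, on either strand, to 6 motifs searched for: the TATA box as TATAAA, the AP-1 site as TGANTCA, the AP-1-like site known from TIMP genes as TGAGTAA, the cyclic AMP response element as TGACGTCA, the STAT site as TTCNNNGAA and the SP1 box as GGGCGG.
Timp1, chrX:3771073-3771372, minus strand: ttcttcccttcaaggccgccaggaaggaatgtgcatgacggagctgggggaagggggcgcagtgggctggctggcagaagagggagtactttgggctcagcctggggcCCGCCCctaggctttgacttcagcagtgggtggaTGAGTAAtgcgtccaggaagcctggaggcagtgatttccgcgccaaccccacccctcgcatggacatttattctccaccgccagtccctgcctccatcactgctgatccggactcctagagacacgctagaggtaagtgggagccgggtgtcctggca
Adamts1, chr11:38427335-38427634, minus strand: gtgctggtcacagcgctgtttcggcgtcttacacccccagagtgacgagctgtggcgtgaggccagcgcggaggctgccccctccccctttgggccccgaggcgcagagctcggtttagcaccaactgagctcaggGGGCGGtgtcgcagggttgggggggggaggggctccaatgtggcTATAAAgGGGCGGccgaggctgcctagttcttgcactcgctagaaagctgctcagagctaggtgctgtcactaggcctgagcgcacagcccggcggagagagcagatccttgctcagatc
Adamts4, chr13:86202761-86203060, plus strand: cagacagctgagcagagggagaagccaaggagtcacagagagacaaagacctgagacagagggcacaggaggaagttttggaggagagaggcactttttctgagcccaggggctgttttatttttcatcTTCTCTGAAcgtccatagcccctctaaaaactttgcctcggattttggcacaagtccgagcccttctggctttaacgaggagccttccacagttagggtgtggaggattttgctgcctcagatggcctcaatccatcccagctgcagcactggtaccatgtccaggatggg
Adamts9, chr4:127019827-127020126, minus strand: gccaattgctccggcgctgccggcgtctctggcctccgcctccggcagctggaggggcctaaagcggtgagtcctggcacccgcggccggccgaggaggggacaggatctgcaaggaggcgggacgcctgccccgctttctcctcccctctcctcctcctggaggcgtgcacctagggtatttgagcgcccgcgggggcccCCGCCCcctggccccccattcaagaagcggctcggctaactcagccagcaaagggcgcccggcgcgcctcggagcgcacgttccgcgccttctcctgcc

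The 4 promoters did not share 1 motif. Timp1 held TGAGTAA, its first base 108 bases before the start, a sequence found in 2.90% of 33469 RefSeq promoters of this length, and a GGGCGG box on the other strand. Adamts1 held TATAAA 70 bases before the start (14.2% of all promoters) with a GGGCGG box on each side of it. Adamts4 held TTCTCTGAA, a match to TTCNNNGAA, 121 bases before the start (8.87% of all promoters) and no GGGCGG. Adamts9 held a single GGGCGG box, which 33.1% of all promoters hold, and was the most GC-rich of the 6 at 72.3% against a median of 51.7% over all promoters. The promoters of Timp2 and Timp3, which did not pass the test in sepsis, held GGGCGG boxes and none of the other 5 motifs. No match to TGANTCA or TGACGTCA, present in 7.33% and 1.83% of all promoters, was in any of the 6 windows. These matches describe letters in a window and carry no measurement of binding.

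Between 14199422 and 49937173 reads fell on genes in each library. Levels are in CPM, the reads of a gene scaled to a common library size by the trimmed mean of M-values (TMM). Fold changes were fitted to the counts in edgeR by quasi-likelihood, p-values were adjusted over all genes tested by Benjamini-Hochberg with 0.05 as the threshold, and intervals are 95%. The hepatocyte markers (10 of 10 found) summed to between 140183 and 187856 CPM. Library 10, in the Propofol sepsis group, stood apart: 14 of 14 brain genes, a list written after the data were seen, were higher in it than in any other library. Their sum was 429 CPM in library 10 and 4.99 to 26.5 CPM in the other 15. Library 10 was also the highest Propofol sepsis library for 6 of the 9 members, so the Propofol sepsis changes of the 9 members are also given without it.

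In sepsis, 6 of the 9 members rose under isoflurane and the same 6 rose under Propofol: Timp1, Mmp9, Mmp14, Adamts1, Adamts4 and Adamts9. None fell. Of all genes tested, 25.7% were called higher and 24.4% lower under isoflurane, and 20.4% higher and 21.7% lower under Propofol. The median log2 fold change of the 9 members was 1.17 under isoflurane and 0.69 under Propofol, beside 0.0061 and -0.0016 over all genes tested. Without library 10, 5 of the 9 rose under Propofol (19.9% of all genes higher), and Mmp9 was the one lost. Both comparisons of sepsis with control use separate control libraries.

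**Figure D1:**
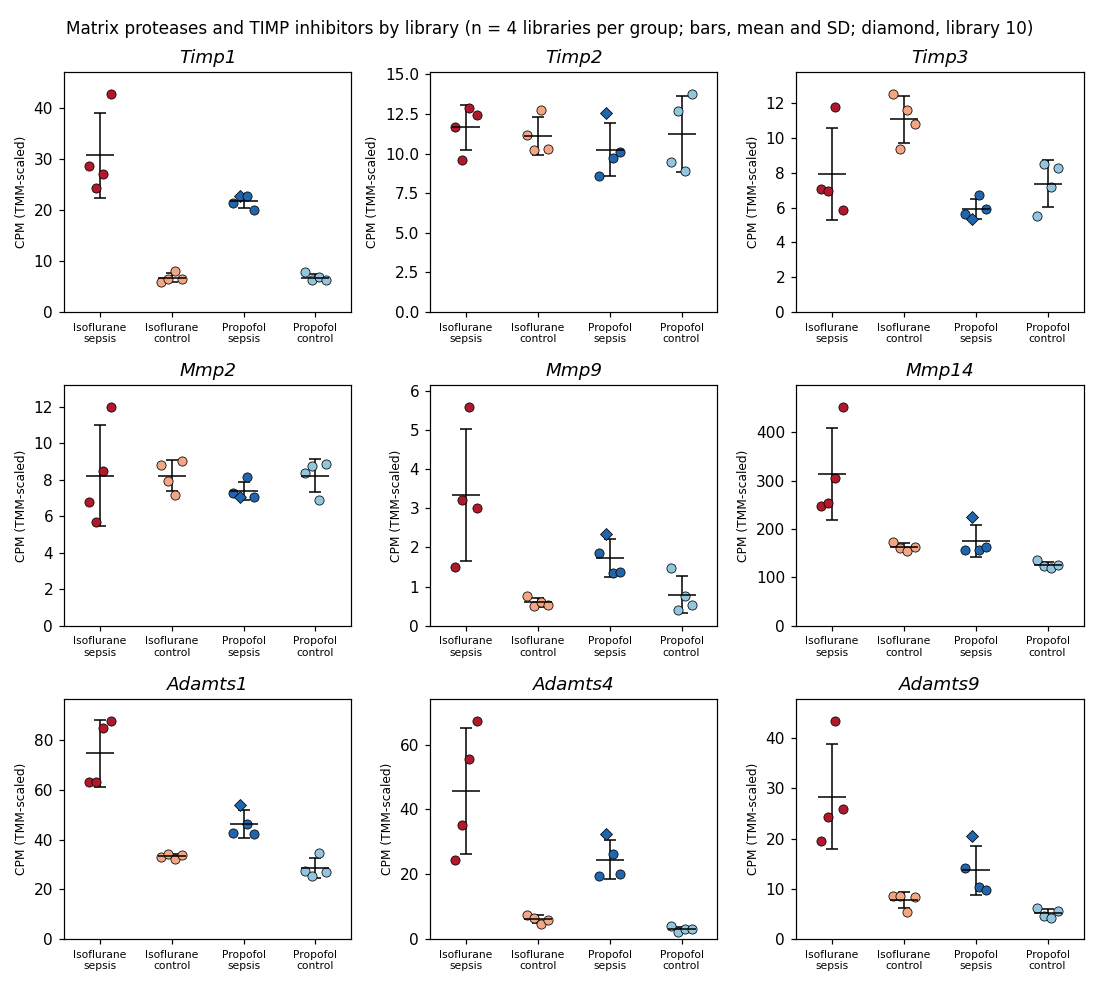
Levels of the 9 genes in each of the 16 libraries (y axis, TMM-scaled CPM from 0), with the mean and SD of the 4 libraries of each group, and with library 10 drawn as a diamond. Sepsis libraries lie above all controls of the same anesthetic for Timp1, Mmp14, Adamts1, Adamts4 and Adamts9, whereas the groups overlap for Timp2, Timp3 and Mmp2, and for Mmp9 under Propofol.

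Timp1 was the one inhibitor that rose. Its level was 28.5, 24.2, 27.1 and 42.7 CPM in the Isoflurane sepsis libraries and 5.88, 6.53, 7.99 and 6.44 CPM in the Isoflurane control libraries. Under Propofol it was 21.3, 22.7, 22.8 and 19.9 CPM in sepsis and 7.85, 6.17, 6.76 and 6.24 CPM in control. Every sepsis library was above every control library, library 4 was the highest of all, and the Propofol sepsis libraries lay close together. The rise was 4.57-fold under isoflurane (interval 3.42 to 6.12, log2 2.19 ± 0.186 SE, edgeR adjusted p = 7.38e-05, n = 4 against 4). Under Propofol it was 3.20-fold (interval 2.77 to 3.70, log2 1.68 ± 0.0933 SE, adjusted p = 5.75e-06), and 3.16-fold without library 10.

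The control levels of Timp1 were alike in both anesthetics, with means of 6.71 ± 0.901 CPM (SD, n = 4) under isoflurane and 6.76 ± 0.776 under Propofol, and a difference with an interval of -0.27 to 0.25 log2. In bulk tissue, more RNA per cell and more cells that hold the RNA cannot be told apart, here or for any gene below. The span of Timp1 overlaps that of Syn1, a neuronal synapsin gene, in the reference annotation, and Syn1 had 122 reads in library 10 and at most 19 in the others, whereas Timp1 was no higher in library 10 than in library 11.

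Timp2, which both inhibits MMPs and helps Mmp14 activate the Mmp2 precursor, did not pass the test. Under isoflurane its levels ran from 9.60 to 12.8 CPM in sepsis and 10.2 to 12.8 in control, and under Propofol from 8.58 to 12.6 in sepsis and 8.90 to 13.8 in control. All 4 groups overlapped. The intervals of the log2 change were -0.20 to 0.35 under isoflurane and -0.51 to 0.23 under Propofol, and both leave out the rise fitted for Timp1. Without library 10 the Propofol change was -0.24 log2 (adjusted p = 0.258).

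Timp3, the matrix-bound inhibitor that also blocks ADAMTS proteases, had lower means in sepsis without passing the test. Its level was 7.08, 6.96, 11.8 and 5.86 CPM in Isoflurane sepsis and 12.6, 9.35, 11.6 and 10.8 CPM in Isoflurane control. Library 3 lay among the controls and the other 3 sepsis libraries lay below them all. The log2 change was -0.47 (interval -0.95 to 0.01, adjusted p = 0.0946), and the fall passed the test without library 3 (adjusted p = 0.0027) and with all 16 libraries in a single fit (log2 -0.48, adjusted p = 0.0385). Under Propofol the levels ran from 5.37 to 6.73 CPM in sepsis and from 5.53 to 8.50 CPM in control, with a log2 change of -0.33 (interval -0.66 to 0.00, adjusted p = 0.0986), and -0.29 without library 10 (adjusted p = 0.160). Its span overlaps that of Syn3, another synapsin gene, which had at most 10 reads in any library. Library 13 was the low control there, and without it the fall passed (log2 -0.44, adjusted p = 0.0233).

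The make-up of the TIMP reads therefore differed between sepsis and control. Of the reads on Timp1, Timp2 and Timp3 together, Timp1 took 52.4% to 70.0% in the Isoflurane sepsis libraries (median 59.8%) and 19.8% to 25% in Isoflurane control (median 24%). Under Propofol it took 55.4% to 60.0% in sepsis (median 57.0%) and 22% to 34.4% in control (median 26.1%). The ranges of sepsis and control did not overlap under either anesthetic. The fourth family member, Timp4, was too low to test, with 9 reads in sepsis and 8 in control under isoflurane, and 50 in sepsis and 4 in control under Propofol, 40 of the 50 being in library 10.

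Mmp14, the membrane-anchored collagenase that activates the Mmp2 precursor at the cell surface, rose under both anesthetics. Its level was 247, 254, 305 and 452 CPM in Isoflurane sepsis and 173, 160, 154 and 162 CPM in Isoflurane control. It was 156, 226, 157 and 162 CPM in Propofol sepsis and 135, 122, 120 and 125 CPM in Propofol control. Each sepsis group lay above its controls, library 4 was the highest under isoflurane, and library 10 stood clear of the other 3 under Propofol. The rise was 1.94-fold under isoflurane (interval 1.46 to 2.58, log2 0.96 ± 0.181 SE, edgeR adjusted p = 0.00269). Under Propofol it was 1.39-fold (interval 1.16 to 1.67, log2 0.47 ± 0.118 SE, adjusted p = 0.0100). Without library 10 the Propofol rise was 1.26-fold (log2 0.33 ± 0.0607 SE, adjusted p = 0.00204), from 158 ± 2.94 CPM (SD, n = 3).

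Mmp2, the gelatinase whose precursor Mmp14 activates, did not pass the test under either anesthetic. Its level was 6.78, 5.67, 8.44 and 12 CPM in Isoflurane sepsis and 8.79, 7.92, 7.15 and 9.0 CPM in Isoflurane control. The sepsis libraries lay on both sides of the controls, with library 4 the highest. The mean was 8.21 CPM in Isoflurane sepsis and 8.22 CPM in control, and the interval of the log2 change ran from -0.47 to 0.47. Under Propofol the levels ran from 7.04 to 8.12 CPM in sepsis and 6.90 to 8.83 CPM in control, with an interval of -0.41 to 0.08. Without library 10 the Propofol change was -0.14 log2 (adjusted p = 0.376).

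Mmp9, the gelatinase that neutrophils store in granules, was the lowest-counted member and rested on 7 to 108 reads a library. It was at 1.5, 3.22, 5.59 and 3.02 CPM in Isoflurane sepsis and at 0.752, 0.495, 0.604 and 0.521 CPM in Isoflurane control. All Isoflurane sepsis libraries were above the controls, library 3 being the highest and library 1 the lowest. The rise was 5.69-fold (interval 3.04 to 10.6, log2 2.51 ± 0.400 SE, edgeR adjusted p = 0.00118). Under Propofol it was at 1.86, 2.35, 1.34 and 1.37 CPM in sepsis and 1.48, 0.408, 0.762 and 0.528 CPM in control. Those groups overlapped, because control library 13 lay above sepsis libraries 11 and 12. The Propofol rise was 2.19-fold (interval 1.22 to 3.92, log2 1.13 ± 0.376 SE, adjusted p = 0.0356) and no longer passed without library 9, 10, 14, 15 or 16 (log2 0.92 to 1.11, adjusted p from 0.0582 to 0.0951) or with no filter on low counts (adjusted p = 0.0621).

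Summed neutrophil markers were also higher in sepsis than in control. The 14 markers summed to 38.0, 77.3, 122 and 104 CPM in Isoflurane sepsis libraries 1 to 4 and to between 18.9 and 21.6 CPM in Isoflurane control. In Propofol sepsis they summed to 49.1, 56.7, 42.0 and 38.9 CPM, against 19.9 to 27.9 CPM in Propofol control. Library 1 was the lowest Isoflurane sepsis library and library 3 the highest in both Mmp9 and the marker sum, and library 10 was the highest Propofol sepsis library in both. Other libraries differed in order. Library 2 was above library 4 in Mmp9 (3.22 against 3.02 CPM) and below it in the marker sum. Control library 13 was above sepsis libraries 11 and 12 in Mmp9 and below them in the marker sum (27.9 CPM). Of the markers tested, 5 of 7 rose under isoflurane and 4 of 8 under Propofol, beside 25.7% and 20.4% of all genes called higher. Without library 1, 9 rose under isoflurane, because more markers passed the filter on low counts. Some markers, such as Fcnb under Propofol, passed it only through the sepsis libraries, so these counts are descriptions. Among those that rose were S100a8, a calcium-binding granulocyte protein (log2 2.49 and 1.09), and Itgam, an integrin chain of myeloid cells (log2 2.96 and 1.45). Mpo, Elane, Cxcr1 and Ltf had under 1 read a library on average, and Mmp8, a neutrophil collagenase on the same list, did not pass the test (log2 0.67 and 0.14). The genes whose centered log2 profile over the 16 libraries lay nearest to that of Mmp9, of 8893 candidates, were Csf3r, the receptor of granulocyte colony-stimulating factor, S100a8 and the gene listed as PVR. Their root mean square distances were 0.341, 0.352 and 0.368 log2. The part of neutrophils in the Mmp9 values was not tested.

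**Figure D2:**
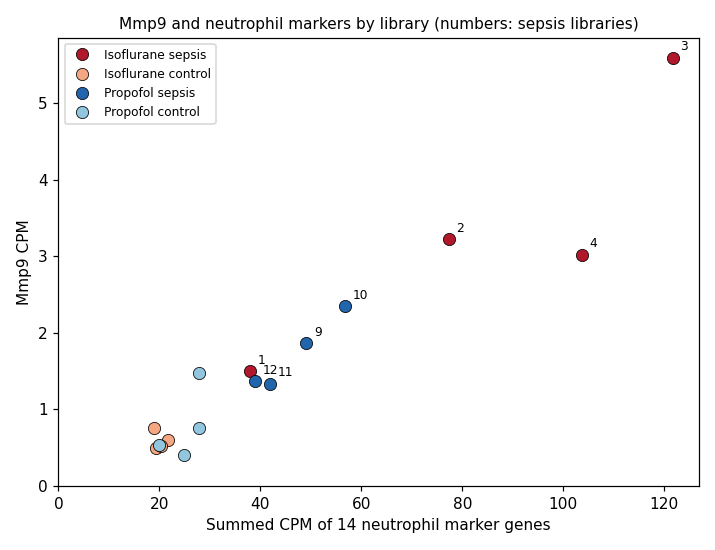
Level of Mmp9 (y axis, CPM) against the summed level of 14 neutrophil marker genes (x axis, CPM) in each of the 16 libraries, colored by group, with sepsis libraries numbered. Library 3 is the highest on both axes, library 1 lies beside Propofol sepsis library 12, and the controls lie at 18.9 to 27.9 CPM on the x axis.

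Adamts4, an aggrecan- and versican-cutting protease, had the largest rise of the 9 genes under each anesthetic. It was at 24.3, 35.2, 55.7 and 67.4 CPM in Isoflurane sepsis and at 7.57, 6.48, 4.51 and 5.83 CPM in Isoflurane control. It was at 19.3, 32.4, 26.2 and 20.2 CPM in Propofol sepsis and at 3.93, 2.21, 3.05 and 3.02 CPM in Propofol control. No sepsis library overlapped a control, and library 1 was the lowest and library 4 the highest within Isoflurane sepsis. The rise was 7.52-fold under isoflurane (interval 4.52 to 12.5, log2 2.91 ± 0.325 SE, edgeR adjusted p = 2.27e-04). Under Propofol it was 8.01-fold (interval 5.81 to 11.1, log2 3.00 ± 0.208 SE, adjusted p = 1.81e-05), and 7.18-fold without library 10.

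Adamts9, a protease of versican and other proteoglycans, rose as well. It was at 19.6, 24.2, 43.5 and 25.9 CPM in Isoflurane sepsis and at 8.51, 8.66, 5.48 and 8.46 CPM in Isoflurane control. In Propofol sepsis it was at 14.1, 20.4, 10.3 and 9.79 CPM, and in Propofol control at 6.11, 4.6, 4.24 and 5.61 CPM. Sepsis and control did not overlap under either anesthetic, with library 3 and library 10 the highest. The rise was 3.65-fold under isoflurane (interval 2.42 to 5.51, log2 1.87 ± 0.263 SE, edgeR adjusted p = 6.45e-04) and 2.64-fold under Propofol (interval 1.82 to 3.83, log2 1.40 ± 0.240 SE, adjusted p = 0.00144). Without library 10 the Propofol rise was 2.21-fold (log2 1.15 ± 0.169 SE, adjusted p = 6.65e-04).

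Adamts1, an inducible protease of versican and aggrecan, rose under both anesthetics. It was at 63.3, 63.3, 84.9 and 88.0 CPM in Isoflurane sepsis and at 33.0, 34.2, 32.3 and 33.9 CPM in Isoflurane control. It was at 42.6, 54.2, 46.5 and 42.1 CPM in Propofol sepsis and at 27.5, 25.3, 34.8 and 26.9 CPM in Propofol control. Every sepsis library exceeded its controls, and the 4 Isoflurane controls had a coefficient of variation of 2.62%. The rise was 2.25-fold under isoflurane (interval 1.85 to 2.74, log2 1.17 ± 0.126 SE, edgeR adjusted p = 1.96e-04). Under Propofol it was 1.61-fold (interval 1.35 to 1.92, log2 0.69 ± 0.113 SE, adjusted p = 0.00113), and 1.53-fold without library 10.

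**Figure D3:**
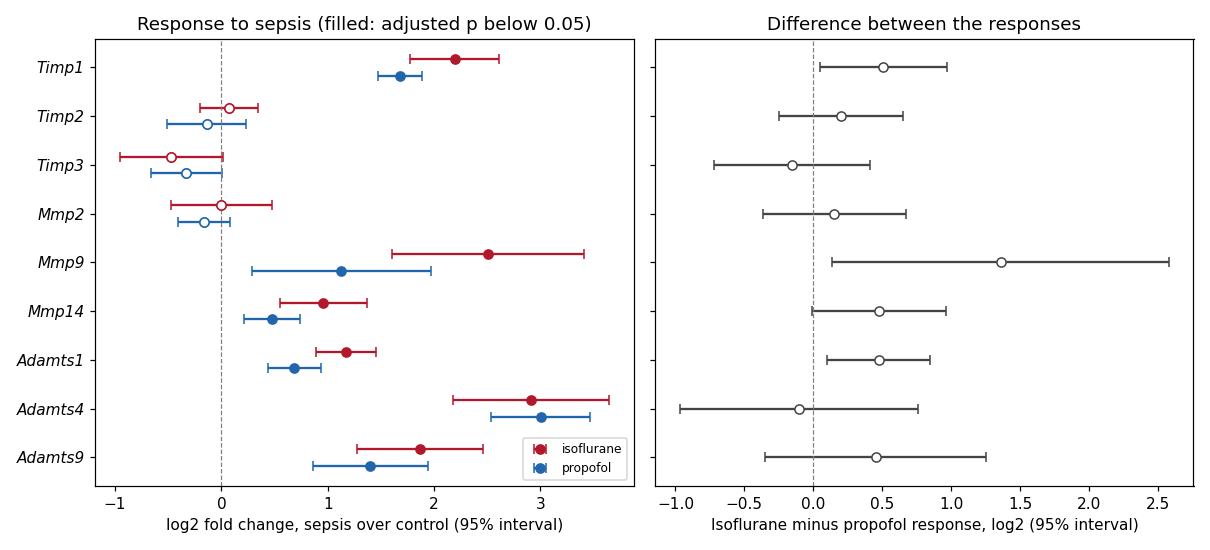
Left, log2 fold change of sepsis over control for each gene under isoflurane and under Propofol, with 95% intervals and filled points where the adjusted p is below 0.05. Right, the isoflurane response minus the Propofol response with its 95% interval. On the left 6 genes are filled under both anesthetics, and on the right no gene passes the adjusted threshold.

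Whether sepsis raised these genes more under one anesthetic than the other was tested as the difference between the 2 responses, over all 16 libraries. The fitted difference was called for 0 of 9 members by edgeR, 0 by DESeq2 and 0 by limma-voom, while of all genes tested 2.72%, 7.97% and 2.14% were called. At an unadjusted p under 0.05 edgeR counted 3: Timp1, Mmp9 and Adamts1. The share of all genes at that looser threshold was not counted, so this number is a description only. The isoflurane response exceeded the Propofol response by 0.51 log2 for Timp1 (interval 0.05 to 0.97, adjusted p = 0.177), by 1.36 for Mmp9 (0.14 to 2.58, adjusted p = 0.174) and by 0.47 for Adamts1 (0.10 to 0.84, adjusted p = 0.127). The same difference was 0.47 for Mmp14 (-0.01 to 0.96) and -0.10 for Adamts4 (-0.97 to 0.76). Without library 1, Mmp9 (1.61 log2, adjusted p = 0.0463) and Adamts1 (0.55 log2, adjusted p = 0.0433) passed the test, and the share of all genes called rose to 15.1%, so 2 of 9 lay near that share. Without library 10 none passed, and the lowest adjusted p was 0.0718, for Adamts1.

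The levels under the 2 anesthetics were also compared directly. Among controls, 4 of 9 members were called, near the 43.3% of all genes called either way, and all 4 were higher under isoflurane. The share of all genes called higher alone was not counted. Adamts4 was 2.00-fold higher (interval 1.5 to 2.65, edgeR adjusted p = 0.00163), with no overlap between 4.51 to 7.57 CPM under isoflurane and 2.21 to 3.93 CPM under Propofol. Timp3 was 1.49-fold higher (adjusted p = 0.00552), at 9.35 to 12.6 CPM against 5.53 to 8.50 CPM. Mmp14 was 1.29-fold higher (adjusted p = 4.56e-04), also without overlap. Adamts9 was 1.53-fold higher (adjusted p = 0.0119), but library 7 at 5.48 CPM lay below Propofol controls 13 and 16. With all 16 libraries in a single fit, which called 26.3% of all genes, 2 of these 4 calls were kept, those of Timp3 and Adamts4, and the calls of Mmp14 (adjusted p = 0.105) and Adamts9 (adjusted p = 0.121) were lost.

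Among septic livers, 3 of 9 members were called beside 19.3% of all genes called either way. These were Mmp14, Adamts1 and Adamts9, all higher under isoflurane. The folds were 1.79 for Mmp14 (interval 1.29 to 2.49, edgeR adjusted p = 0.0287), 1.61 for Adamts1 (1.29 to 2.01, adjusted p = 0.0177) and 2.07 for Adamts9 (1.30 to 3.31, adjusted p = 0.0407). The groups did not overlap for Mmp14 and Adamts1. For Adamts9, library 10 at 20.4 CPM lay above library 1 at 19.6 CPM. For Timp1, which was not called (edgeR adjusted p = 0.0644), the 4 libraries of each group did not overlap, at 24.2 to 42.7 CPM against 19.9 to 22.8 CPM. Adamts4 was 1.86-fold higher and not called either (edgeR adjusted p = 0.0688), and its groups overlapped. Both were called with DESeq2 (adjusted p = 0.0308 and 0.0212). Both were also called with all 16 libraries in a single edgeR fit (adjusted p = 0.0144 and 0.0145). Without library 2 Timp1 was called (0.0483), and without library 1 Adamts4 (0.0177) and Mmp9 (0.0258). These settings called, in that order, 28.1%, 38.6%, 12% and 27.7% of all genes. All 9 members had a higher fitted level under isoflurane, but how many of all genes did was not counted. The intervals held both signs for Timp2 (-0.14 to 0.50 log2), Timp3 (-0.06 to 0.91) and Mmp2 (-0.33 to 0.63). Of the calls of Mmp14, Adamts1 and Adamts9 none was left without library 9, 11 or 12, but the share of all genes called also fell there, to 2.78%, 3.02% and 2.41%. Without library 3 only that of Adamts1 was left (8.15% of all genes called), and without library 10 all 3 were. The call of Adamts9 was also lost without library 2 or 4 and with library totals alone (adjusted p = 0.0601, 0.0602 and 0.0522).

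**Figure D4:**
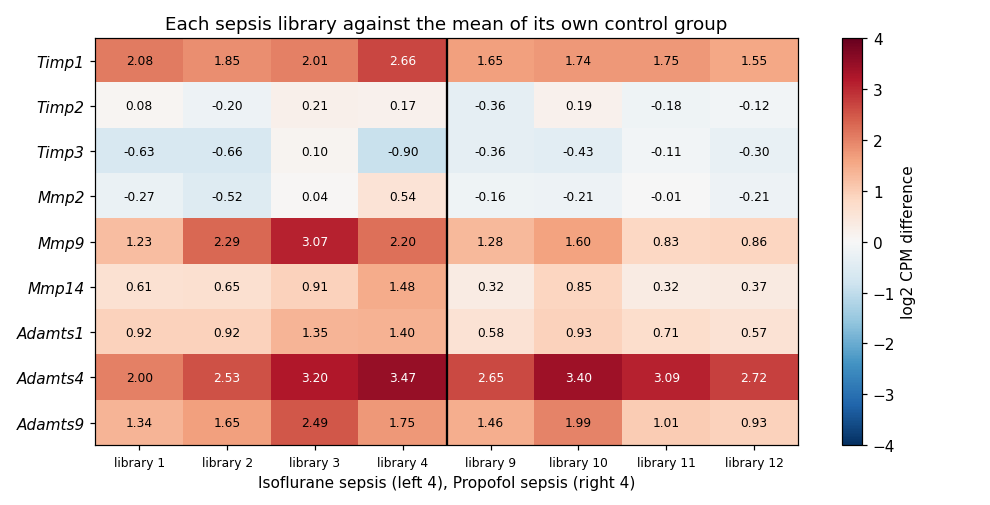
Difference in log2 CPM between each sepsis library (columns) and the mean of the 4 controls under the same anesthetic, for each gene (rows), printed in each cell and colored from blue (lower) to red (higher). Rows of Timp1, Mmp9, Mmp14, Adamts1, Adamts4 and Adamts9 are above 0 in all 8 sepsis libraries, and the highest values are those of Adamts4 in libraries 4, 10 and 3, at 3.47, 3.40 and 3.20.

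Which library of a group was the highest was counted for the 9 members, and not for all genes. In Isoflurane sepsis, library 4 was the highest for 5 of the 9 genes and library 3 for the other 4. In Propofol sepsis, library 10 was the highest for 6 and library 11 for 3. Controls were uneven as well, with library 5 the highest for 4 in Isoflurane control and library 13 for 5 in Propofol control. Against the mean of their own controls, the shift of Adamts4 ran from 2.00 log2 in library 1 to 3.47 in library 4 and from 2.65 in library 9 to 3.40 in library 10. The shift of Mmp9 ran from 1.23 in library 1 to 3.07 in library 3, and that of Timp1 only from 1.55 to 2.66 over all 8 sepsis libraries. Timp2, Timp3 and Mmp2 had shifts of both signs.

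Profiles nearest to the other members that rose, by the same distance over the 16 libraries, were these. Nearest to Timp1 were Rhbdf2, Cxcl16 and Hivep2 (0.240 to 0.261 log2), Cxcl16 being a membrane-bound chemokine and Rhbdf2 an inactive rhomboid that carries the sheddase Adam17 to the surface. Nearest to Adamts1 were Rabgef1, Flna, an actin crosslinker, and Hectd2 (0.0960 to 0.119 log2). Mmp14 lay nearest to Fnta, Nfat5 and Ralb (0.136 to 0.141 log2), and Adamts9 to Homer3, Pik3ca and Mapkapk2 (0.221 to 0.272 log2). Adamts4, whose own profile varied most at 1.56 log2, lay nearest to Plscr1, Arrdc4 and Rgs4 (0.327 to 0.467 log2). These distances follow largely from how each gene differs between the 4 groups, and no other property of the genes was compared.

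Within the wider families, counted with the members, some ADAMTS genes rose and none fell, while MMP genes moved both ways. Under each anesthetic Adamts1, Adamts4 and Adamts9 are among the ADAMTS genes that rose, and Mmp9 and Mmp14 among the MMP genes. Counts without the members were not made. Some of these genes passed the filter on low counts only through the group in which they were high, so the counts and medians of lists are descriptions. Each count stands beside the shares of all genes called higher and lower, 25.7% and 24.4% under isoflurane and 20.4% and 21.7% under Propofol. Without library 10 no count of a list moved by more than 1, but other single libraries moved some by more. Of 11 ADAMTS genes tested under isoflurane 6 rose, and of 10 under Propofol 6 rose, with medians of 0.56 and 0.62 log2, and 4 rose under isoflurane without library 4 or 5. Besides the members, Adamts5, an aggrecanase, rose under isoflurane (log2 1.67, adjusted p = 0.00237), and was too low to test under Propofol with 68 and 13 reads. Adamts3, a procollagen processor, rose under Propofol (log2 1.59, adjusted p = 0.00448) and was at 0.39 under isoflurane (adjusted p = 0.220). Of 12 MMP genes tested under isoflurane 4 rose and 2 fell, and of 11 under Propofol 4 rose and 2 fell, with medians of 0.27 and 0.14 log2, near those shares of all genes, and 6 rose under isoflurane without library 1 or 4. Mmp3, for which no test is given below, is counted among the 4 under each anesthetic.

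Mmp3 (stromelysin), which opens the precursors of other MMPs, was higher in sepsis, but it passed the filter only through the sepsis libraries, so its difference is a description with no test. It was at 1.95, 2.71, 4.56 and 5.92 CPM in Isoflurane sepsis against 0.139 to 0.658 CPM in control, and at 0.962 to 3.52 CPM in Propofol sepsis against 0 to 0.571 CPM in control. The groups did not overlap, and the fitted log2 differences were 3.03 and 3.01, and 2.48 under Propofol without library 10. Mmp15, a membrane-type MMP, fell from 3.98 ± 0.937 to 1.27 ± 0.350 CPM under isoflurane (SD, n = 4 each; log2 -1.64, edgeR adjusted p = 8.87e-04) and from 6.43 ± 0.961 to 2.95 ± 0.779 CPM under Propofol (log2 -1.14, adjusted p = 0.00151). Mmp19 fell from 40.0 ± 2.53 to 14.3 ± 5.56 CPM and from 48.6 ± 2.89 to 29.0 ± 6.32 CPM (log2 -1.48 and -0.75, edgeR adjusted p = 8.88e-04 and 0.00279). Without library 10 the Propofol changes were -1.11 log2 for Mmp15 and -0.60 for Mmp19. Mmp24, another membrane-type MMP, rose under Propofol (log2 1.07, and 0.93 without library 10), and Mmp12, the macrophage elastase, rose under isoflurane (log2 1.08, adjusted p = 0.0333). The Mmp12 call was lost without library 2, 5, 6 or 8 (adjusted p up to 0.101).

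**Figure D5:**
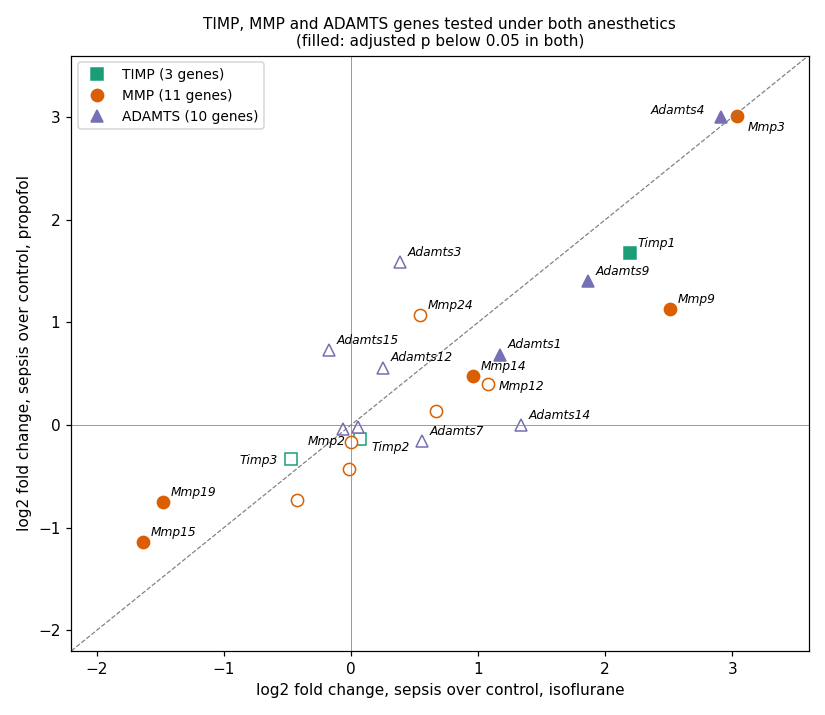
Log2 fold change of sepsis over control under isoflurane (x axis) and Propofol (y axis) for the TIMP, MMP and ADAMTS genes tested under both, filled where both adjusted p-values are below 0.05, with a dashed line of equal change. Adamts4 and Mmp3 lie near 3 on both axes, Mmp15 and Mmp19 lie below 0 on both, and no ADAMTS gene is filled below 0. The filled point of Mmp3 is not a test, because Mmp3 passed the filter on low counts only through the sepsis libraries.

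Other proteases and regulators of the same chain changed in both directions. Of the membrane ADAM proteases, 1 of 6 rose under isoflurane and 2 of 6 under Propofol, with medians of 0.12 and 0.14 log2. Adam9 rose in both (log2 0.97 and 0.96), and Adam10, a sheddase, rose under Propofol (log2 0.30). Of the ADAMTS-like proteins, which lack the protease domain, 1 of 3 fell under isoflurane and 2 of 2 under Propofol, with medians of -0.09 and -0.87. Adamtsl3 fell in both (log2 -0.82 and -1.32), the isoflurane call being lost without library 5, 6 or 7 (adjusted p up to 0.0563). Adamtsl4 fell under Propofol (log2 -0.42) and was at 0.46 under isoflurane (adjusted p = 0.0756), and this difference between the responses passed the test (0.87 log2, adjusted p = 0.0473). For this gene and the genes below, a call on the difference between responses was not checked with a library left out. The share of all genes called for that difference was 2.72%, and ran from 0.504% without library 12 to 15.1% without library 1.

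Among 11 other regulators of MMPs, 4 rose and 1 fell under isoflurane and 5 rose and 3 fell under Propofol, with medians of 0.16 and 0.23 log2. The 3 that fell under Propofol were 1 without library 11, 12, 15 or 16. Thbs1 (thrombospondin), a matrix protein that binds MMPs and latent TGF-beta, rose by 3.84 log2 under isoflurane and 2.94 under Propofol. Lcn2, a lipocalin that forms a complex with MMP9, rose by 3.20 and 2.24 log2, and Tfpi2, a serine protease inhibitor, by 3.01 and 1.63. Lrp1, the endocytic receptor that clears MMP and inhibitor complexes, fell by 0.66 log2 under isoflurane and by 0.21 under Propofol. The Lrp1 call under Propofol was lost without library 10, 11, 12, 13, 15 or 16 (adjusted p up to 0.0859). Under Propofol Furin, which cuts the propeptide of Mmp14 and many other precursors, fell by 0.53 log2. Thbs2 fell by 0.73 log2 there, a call lost without library 11, 12, 14, 15 or 16 (adjusted p up to 0.0961).

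In the plasminogen activation system, whose product plasmin activates MMP precursors, 6 of 12 genes rose and 2 fell under isoflurane, and 5 rose and 3 fell under Propofol (medians 0.65 and 0.35 log2). Serpinb2, an inhibitor of plasminogen activators, had 99 reads in Isoflurane sepsis against 1 in control and 87 in Propofol sepsis against 1 in control, and since it passed the filter only through the sepsis libraries no test is given. Plat, the tissue-type activator, rose under isoflurane (log2 2.60), and Plaur, the urokinase receptor, under both (log2 1.27 and 0.98). Plau (urokinase) fell under Propofol (log2 -1.23) and was at 0.15 under isoflurane, a difference between responses that passed the test (1.37 log2, adjusted p = 0.0106). Plgrkt, a plasminogen receptor, fell by 1.69 and 1.29 log2, and Plg itself by 0.21 and 0.23, the isoflurane call of Plg being lost without any 1 of the 4 controls (adjusted p up to 0.0897).

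Of the substrates, versican moved most. Vcan, the versican that the ADAMTS members cut, was at 3.49, 5.22, 6.63 and 10.9 CPM in Isoflurane sepsis against 0.687 to 1.34 CPM in control, and at 3.28 to 8.55 CPM in Propofol sepsis against 0.757 to 1.61 CPM in control. It rose by 2.59 ± 0.378 log2 (SE, edgeR adjusted p = 7.63e-04) and 2.39 ± 0.321 log2 (adjusted p = 3.93e-04) without overlap, and by 2.15 under Propofol without library 10. Of 8 matrix proteoglycans tested, 3 rose and 1 fell under isoflurane and 3 rose and 2 fell under Propofol (medians 0.84 and 0.08 log2). Dcn (decorin) rose by 1.72 and 0.96 log2 and Srgn (serglycin, of blood cell granules) by 1.36 and 0.54, with a difference between the responses that passed for Srgn (0.81 log2, adjusted p = 0.0318). Prelp fell by 1.05 and 1.15 log2. Bgn (biglycan) fell by 0.22 under Propofol, a call lost without library 16 (adjusted p = 0.0693).

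Among collagen genes more fell than rose under Propofol. Of 11 tested under isoflurane 2 rose and 2 fell (5 fell without library 4), and of 12 under Propofol 2 rose and 5 fell (medians -0.07 and -0.10 log2). With all 16 libraries in a single fit, 1 rose and 3 fell under Propofol. Col27a1 rose by 0.78 and 0.72 log2 and the basement membrane chain Col4a1 by 0.59 and 0.41, but the isoflurane call of Col4a1 was lost without library 3, 4, 5, 6, 7 or 8 (adjusted p up to 0.0772). Col6a2 fell by 0.34 and 0.42 log2, and Col16a1 by 0.50 under isoflurane, lost without library 6 (adjusted p = 0.0562). Col1a1 fell by 0.57 and Col5a1 by 0.49 log2 under Propofol.

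Of 15 matrix glycoproteins, 6 rose and 2 fell under isoflurane and 3 rose and 3 fell under Propofol (medians 0.28 and 0.13 log2). The Propofol counts lie near the shares of all genes, and without library 14 only 1 rose. The laminin chain Lamc1 rose by 1.33 and 0.78 log2. Tnc (tenascin C), a matrix protein of injured tissue, rose by 2.20 log2 under isoflurane and was at 0.91 under Propofol (adjusted p = 0.0575). Eln, the elastin that several MMPs cut, fell by 1.75 and 0.96 log2, and Fbln5, which helps assemble elastic fibers, by 1.12 and 0.91. Fn1 (fibronectin) rose by 0.37 log2 under Propofol and lost its call without library 14 (adjusted p = 0.0532), and Ecm1 fell by 0.17 there, a call lost without library 10, 11, 12, 13, 14, 15 or 16 (adjusted p up to 0.122).

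Of 13 enzymes that modify or crosslink collagen, 5 rose and 2 fell under isoflurane and 3 rose and 2 fell under Propofol (medians 0.18 and -0.02 log2). Plod2, a lysyl hydroxylase, rose by 2.19 and 1.49 log2 and P4ha1, a prolyl hydroxylase, by 1.45 and 0.53. Tgm2 (tissue transglutaminase) rose by 1.75 log2 under isoflurane and was at 0.20 under Propofol, and its responses differed (1.53 log2, adjusted p = 0.00351). Plod3, another lysyl hydroxylase, rose by 0.84 and 0.60 log2, and Serpinh1, the collagen chaperone, fell by 0.60 log2 under Propofol. Loxl4 fell by 0.91 and 0.73 log2 and Loxl3 by 0.94 under isoflurane. The calls of Loxl4 under Propofol were lost without library 12, 13, 14 or 16 (adjusted p up to 0.0821), and those of Loxl3 without library 2, 3, 5, 7 or 8 (adjusted p up to 0.0889).

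Cathepsins, the lysosomal proteases, were measured as a contrast: 4 of 9 rose and 1 fell under isoflurane, and 2 rose and 2 fell under Propofol (medians 0.21 and -0.11 log2), the latter near the shares of all genes. Without library 6 or 8 only 2 rose under isoflurane. Ctsb rose by 0.68 and 0.61 log2. Ctsk rose by 0.54 and 0.48 log2, lost without library 6 or 8 under isoflurane and without library 9, 11, 12, 13, 14 or 15 under Propofol (adjusted p up to 0.0607 and 0.101). Ctsz rose by 0.37 log2 under isoflurane, lost without library 3, 5, 6, 7 or 8 (adjusted p up to 0.0916). Ctsc fell by 0.22 log2 under isoflurane, lost without library 2, 3, 5, 6, 7 or 8 (adjusted p up to 0.0788), and by 0.37 under Propofol, where Ctsa fell by 0.27.

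Markers of the cells that make matrix enzymes were counted beside the shares of all genes called. Those shares were 25.7% higher and 24.4% lower under isoflurane, and 20.4% higher and 21.7% lower under Propofol. Stellate cell and fibroblast markers summed to 243 to 319 CPM in Isoflurane sepsis against 196 to 217 in control, and to 231 to 290 CPM in Propofol sepsis against 190 to 213 in control. Of 11 tested, 6 rose and 1 fell under isoflurane and 4 rose and 1 fell under Propofol. Endothelial markers summed to 243 to 290 CPM against 306 to 375 under isoflurane and to 343 to 356 CPM against 389 to 415 under Propofol, both lower without overlap. Of 10 tested, 0 rose and 6 fell under isoflurane and 2 rose and 2 fell under Propofol, the latter near the shares of all genes. Kupffer cell and macrophage markers summed to 466 to 621 CPM against 420 to 528 and to 453 to 564 CPM against 500 to 578, overlapping in both. Of 10 tested, 6 rose and 2 fell under isoflurane (3 rose without library 8). Under Propofol 2 rose and 2 fell, again near the shares of all genes. None of the 12 stellate and 10 macrophage markers found was at under 1 read a library. The part of these cells in the values of the 9 members was not tested.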

How the data were processed

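RNA-seq measured poly(A) transcripts in 16 rat liver libraries. The deposited values are whole-number read counts per gene, made by the authors from stranded single-end reads. The labels' processing notes name STAR and the rn5 build; the sources used here do not give the counting program, its annotation or its strand setting. Between 21.6% and 25.4% of reads were assigned to no feature and 1.07% to 1.35% were ambiguous, and both rows were left out of totals and tests. Genes were kept by filterByExpr (minimum count 10, total 15), scaled by TMM and tested in edgeR 4.0.16 (R 4.3.3) with the quasi-likelihood F-test on the 2 groups compared, or on all 4 groups for the difference between responses, with Benjamini-Hochberg adjustment over all genes. Log2 CPM used a prior count of 2. Replicate numbers came from the titles, and no number is shared between groups. Libraries of a group differed by more than sampling noise (chi-square per degree of freedom 3.35 to 96.3).

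The members and gene lists were chosen with earlier results of these data known. Named were the members, the 3 largest called rises and falls of each list under each anesthetic, and the 3 nearest profiles of each member that rose. A few genes that this rule picks are not reported here. Alternatives were RLE factors, library totals alone, DESeq2 1.42.0, limma-voom 3.58.1, no filter, a mean CPM of at least 1, all 16 libraries in a single fit and each library left out. For genes outside the members, the alternatives covered sepsis against control only. P-values measure the spread between pools.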

Additional observations from a re-analysis of the deposited data

Results flagged for a closer look

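Of 36 sets of 4 libraries, 9 genes in 4 groups, 2 held a library whose gap to its nearest neighbor exceeded Dixon's 95% critical value, and chance alone flags about 1 in 20. For Mmp14 in Propofol sepsis, library 10 lay high at 226 CPM, and the gap was 0.923 of the range. This is the library with the brain markers described above, and its part in the Mmp14 value was not tested; the rise of Mmp14 under Propofol was called with and without it. For Adamts9 in Isoflurane control, library 7 lay low at 5.48 CPM, and the gap was 0.936 of the range.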

How the results depend on the processing

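No paired analysis was possible because the groups compared share no replicate numbers. Over the alternatives, 6 to 7 of the 9 members were called under isoflurane and 5 to 7 under Propofol. The share of all genes called ran there from 37.4% to 54.4% under isoflurane and from 29% to 43.1% under Propofol. For the difference between responses 0 were called, except 2 without library 1 (15.1% of all genes called), so leaving out a library gave 0 to 2. Among controls the count ranged from 2, with all 16 libraries in a single fit (26.3% of all genes called), to 5 without library 15 (41.3%). Among septic livers it was 5 with DESeq2 (28.1% of all genes called) and 5 with all 16 libraries in a single fit (38.6%). When a library was left out it ran from 0, without library 9, 11 or 12 (2.78%, 3.02% and 2.41%), to 5, without library 1 (27.7%). The sign changed only in log2 differences that were not called. Mmp2 under isoflurane was 0.0037 with RLE factors, 0.0049 with DESeq2 and -0.23 to 0.13 without a library. Among controls Mmp2 was -0.13 with library totals alone, and Timp1 was 0.00055 with no filter on low counts. Leaving out a library there gave -0.098 to 0.067 for Timp1, -0.13 to 0.094 for Timp2, -0.071 to 0.070 for Mmp2 and -0.60 to 0.019 for Mmp9. Among septic livers it gave -0.080 to 0.29 for Mmp2, and for the difference between responses -0.082 to 0.29 for Mmp2 and -0.35 to 0.11 for Adamts4. The cause of these changes was not tested. Mmp9, with 7 to 108 reads a library, is the member with the fewest reads, and animals cannot be told apart within a pool.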
